A study of Mus musculus with 48 samples.

Results

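The genes described here are 10 mouse genes for molecules with which leukocytes and vessel walls hold on to each other. They were chosen by name from the 46983 genes counted, with earlier results of these data known. They are the endothelial adhesion molecules Icam1, Icam2, Vcam1 and Pecam1, the selectins Selp and Sele, and the integrin subunits Itgam, Itgb2, Itgal and Itga4. RNA came from the brain of 3-month-old male C57Black/6 mice. In the MCAO groups the middle cerebral artery had been permanently closed by coagulation and cut, which leaves a small infarct in the parietal cortex. The sham groups had the same surgery under anesthesia without the coagulation, and the control group was intact cortex. MCAO and sham tissue was taken at 3 h, 12 h, 24 h, day 3 and day 7, with 5 MCAO libraries per time (4 at 24 h), 4 sham libraries per time and 4 control libraries, 48 libraries in 11 groups. The MCAO tissue came from the injured cortical region and held affected as well as unaffected brain. The study also describes these samples as nearly the whole hemisphere on the injured side, so the share of injured tissue in a library is not known.

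Leukocytes leave the blood in steps. Selectins on activated endothelium catch the passing cell, integrins on the leukocyte then bind immunoglobulin-type molecules such as ICAM-1 and VCAM-1, and the cell crosses the vessel wall at junctions that hold PECAM-1. In resting brain, vessels carry little of the inducible molecules. The products of Itgam, Itgb2 and Itgal are found there mainly on microglia and on the few leukocytes present.

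The regions just before the start sites of Icam1, Sele and Selp are shown because these are the inducible endothelial members whose levels were low or at 0 in sham tissue. Each is the 250 bases before the RefSeq start (GRCm38.p6, plus strand, 5′ to 3′), and capitals mark matches to GGNNNTTCC, a short form of the site bound by NF-kB.
Icam1, chr9:21015690-21015939: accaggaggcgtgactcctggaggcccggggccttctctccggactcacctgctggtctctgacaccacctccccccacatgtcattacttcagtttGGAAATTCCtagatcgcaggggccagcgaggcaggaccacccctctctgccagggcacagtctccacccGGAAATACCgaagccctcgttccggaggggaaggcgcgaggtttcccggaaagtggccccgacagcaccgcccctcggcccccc
Sele, chr1:164047984-164048233: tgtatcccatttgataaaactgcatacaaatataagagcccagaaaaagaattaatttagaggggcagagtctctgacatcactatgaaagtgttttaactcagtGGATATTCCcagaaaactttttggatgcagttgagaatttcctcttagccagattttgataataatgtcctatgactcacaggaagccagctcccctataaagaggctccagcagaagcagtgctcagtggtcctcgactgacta
Selp, chr1:164115014-164115263: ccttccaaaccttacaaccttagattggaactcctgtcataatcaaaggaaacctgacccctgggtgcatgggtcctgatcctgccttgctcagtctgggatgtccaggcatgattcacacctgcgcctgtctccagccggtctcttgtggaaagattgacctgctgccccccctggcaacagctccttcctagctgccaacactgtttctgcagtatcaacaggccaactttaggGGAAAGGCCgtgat
The form was searched on both strands, and the Selp match and the second Icam1 match lie on the minus strand. Icam1 held 2 matches, at 153 to 145 and 84 to 76 bases before the start, Sele held 1 at 145 to 137 bases and Selp 1 at 14 to 6 bases. Of 32851 promoters of this length, 15.7% held a match. The regions of Itgam and Itga4, searched in the same way, held 0 matches. Itgam held 2 matches to GAGGAA, a core bound by PU.1 and other ETS factors and present in 23.3% of promoters. Sele held 1, on the minus strand at 107 to 102 bases before the start. Sele also held 1 match to TATAAA, the TATA box, at 49 to 44 bases before the start, and 12.4% of promoters held one. CANNTG, the E-box, was present in 66.2% of promoters and matched in the regions of Icam1, Sele, Selp, Itgam and Itga4. A match describes letters and not a bound site. The promoters of Icam2, Vcam1, Itgb2, Itgal and Pecam1 were not analysed here.

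Gene counts per library ranged from 1522668 to 2826735 with a median of 1935856. At this depth several members rested on few reads. Sele had 62 counts in all and was at 0 in 31 of 48 libraries, Itgal had 129 and was at 0 in 12, and Selp had 280 and was at 0 in 22. Icam2 had 497 counts, Icam1 582, Itgb2 635, Itgam 1041, Itga4 1455, Vcam1 3306 and Pecam1 3804. All 10 genes passed the filter of more than 10 counts. Levels are given as CPM, gene counts scaled to a common library size after TMM normalization, and compare libraries, not genes. In the control group 2 libraries stood apart. Replicates C and D lay above all 20 sham libraries for Icam1, Vcam1, Selp and Sele, while replicates A and B did not. The calls of MCAO against control on day 3 and day 7 are therefore given with and without C and D. The other comparisons with control include both unless a control replicate is named as left out. The sham of the same time is the main reference. The study counts its bulk replicates in mice per condition, but the labels tie no library to an animal. If a group's libraries shared animals, the p-values would measure a spread that is partly technical.

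More members were called over sham on day 3 than at any other time. A member was called where edgeR gave an adjusted p (Benjamini-Hochberg) below 0.01 with a change of more than 0.58 on the log2 scale either way. On day 3, 6 of the 10 members were called over sham, all of them higher. They were Icam1, Selp, Pecam1, Itgam, Itgb2 and Itgal. Over all 19970 genes tested, 4.02% were called on that day in either direction and 3.76% higher. The median log2 fold change of the members was 3.04, against 0.01 over all genes. On day 7, 1 of the 10 was called, Itgam, which was higher. On that day 3.5% of all genes were called in either direction and 2.07% higher, and the median of the members was 1.33 against 0.06. At 3 h, 12 h and 24 h edgeR called 0 members, with 0.11%, 0.411% and 0.0901% of all genes called in either direction. At these times 2, 3 and 4 members had an unadjusted p under 0.05, and DESeq2 called 0. More or less RNA per cell and more or fewer cells of a type cannot be told apart in bulk tissue. The plot of every library shows the 10 genes side by side.

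**Figure D1:**
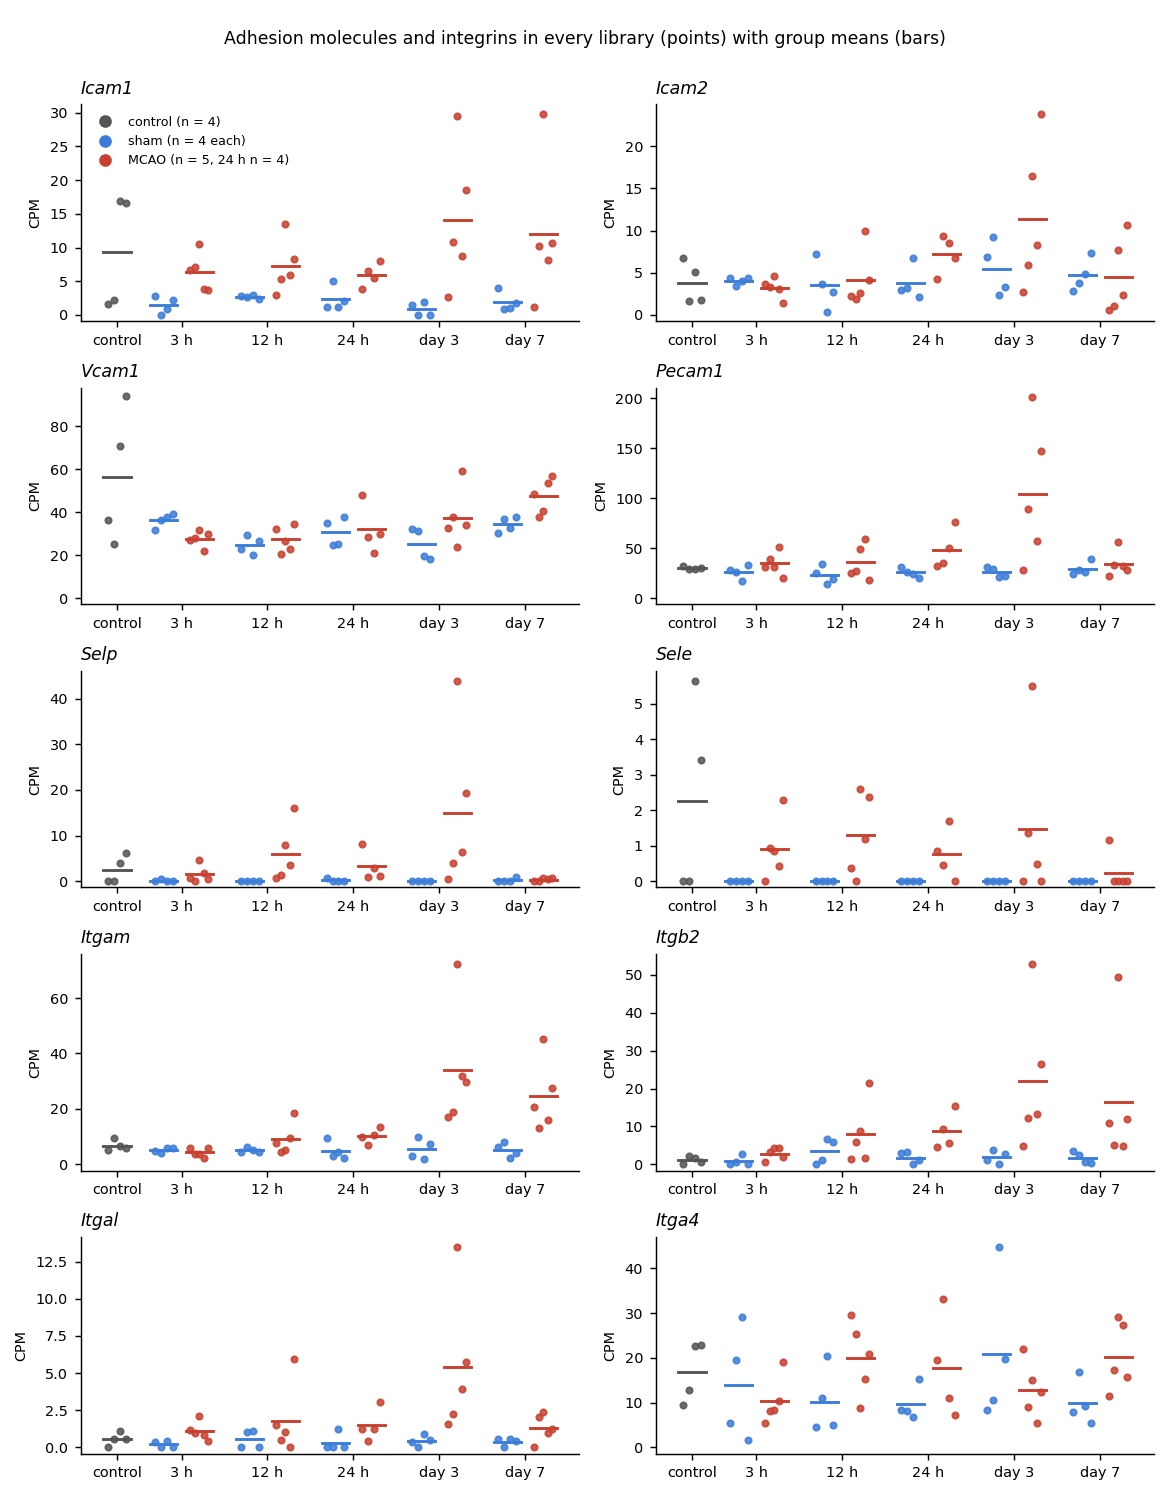
Level of each member in every library (points, CPM after TMM) with the group mean (bar), for control, sham and MCAO libraries at each time; each panel has its own scale. For Pecam1 the MCAO libraries of day 3 ranged from 27.8 to 201 CPM, while the sham libraries of the same day lay between 21.0 and 30.8 CPM.

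Icam1 (ENSMUSG00000037405.7, chromosome 9, 21015985 to 21028817, plus strand of GRCm38) encodes ICAM-1, the endothelial and myeloid ligand of the integrins made with the Itgb2 subunit. An antisense gene, Gm47079, overlaps it and was not among the genes counted. On day 3 its levels were 2.67, 10.8, 29.5, 8.79 and 18.5 CPM in MCAO replicates A to E. The sham replicates of that day had 1.45, 0, 1.87 and 0 CPM. All 5 MCAO libraries lay above all 4 sham libraries, with replicate A only just above. Icam1 rose by 3.94 ± 0.77 (SE) on the log2 scale (adjusted p = 0.000400, edgeR). At 3 h it had 6.63, 7.09, 10.5, 3.88 and 3.64 CPM after MCAO and 2.77, 0, 0.896 and 2.18 CPM after sham. The groups did not overlap at 3 h or at 12 h, yet the differences of 2.01 ± 0.74 and 1.39 ± 0.68 missed the threshold (adjusted p = 0.377 and 0.330, edgeR). At 12 h MCAO replicate A and sham replicate C had 8 reads each and were set apart by scaling to library size alone. At 24 h the MCAO libraries had 3.82, 6.54, 5.51 and 7.94 CPM, and sham replicate B, with 5.06 CPM, lay among them. On day 7 the levels were 1.15, 10.2, 29.7, 8.16 and 10.6 CPM after MCAO and 4.01, 0.933, 1.09 and 1.82 CPM after sham. Replicate A lay within the sham range and the other 4 lay above it, and the difference of 2.60 ± 0.71 had an adjusted p of 0.0141 (edgeR). It was called by DESeq2, without the filter on low counts and without MCAO replicate A. Without replicate C the difference was 1.94 with an adjusted p of 0.106 (edgeR).

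Among all genes, non-overlapping groups with MCAO above were found for 2.27% at 3 h, 2.03% at 12 h, 3.73% at 24 h, 4.33% on day 3 and 5.38% on day 7. Of the 10 members this held for 2 at 3 h (Icam1 and Itgal), 2 at 12 h (Icam1 and Selp) and 3 at 24 h (Selp, Itgb2 and Pecam1). On day 3 it held for 5 (Icam1, Selp, Itgam, Itgb2 and Itgal) and on day 7 for 2 (Itgam and Itgb2). At 3 h Itgal had 1 read in MCAO replicate E and in sham replicates A and C, so scaling to library size alone set these apart. The same was true of Icam1 at 12 h, with 8 reads in MCAO replicate A and in sham replicate C. No member lay below sham without overlap at any time, against 1.31%, 1.27%, 2.1%, 2.81% and 5.1% of all genes at the 5 times.

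Icam2 (chromosome 11, 106377656 to 106388075, minus strand) encodes ICAM-2, which endothelium carries without stimulation. On day 3 its levels were 2.67, 5.87, 16.5, 8.30 and 23.8 CPM after MCAO and 6.89, 9.23, 2.34 and 3.28 CPM after sham. Replicates C and E stood above the sham range and the other 3 lay within it. The log2 difference of 1.06 ± 0.55 did not pass the test (adjusted p = 0.260, edgeR), and at the other times it lay between -0.35 and 0.95 with adjusted p of at least 0.706.

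Vcam1 (chromosome 3, 116109949 to 116129688, minus strand) encodes VCAM-1, the endothelial ligand of the integrin made with the Itga4 subunit. It was not called at any time. On day 3 the MCAO libraries had 32.6, 37.5, 24.0, 59.1 and 33.9 CPM and the sham libraries 31.9, 31.4, 19.6 and 18.3 CPM. The groups overlapped through replicate C, and the difference was 0.56 ± 0.26 (adjusted p = 0.190, edgeR). On day 7 the levels were 48.5, 37.7, 40.5, 53.7 and 57.0 CPM after MCAO against 30.3, 36.9, 32.7 and 37.9 CPM after sham. The groups met at 37.7 and 37.9 CPM, and the difference was 0.46 ± 0.25 (adjusted p = 0.271, edgeR). At 3 h the difference had the other sign, -0.38 ± 0.26 (adjusted p = 0.729, edgeR). A transcript on the opposite strand, Gm43109, overlaps Vcam1, and the strand setting of the counting is not given in the sources used here.

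Pecam1 (chromosome 11, 106654217 to 106750628, minus strand) encodes PECAM-1, a molecule of endothelial junctions that platelets and leukocytes also carry. On day 3 its levels were 27.8, 89.0, 201, 57.1 and 147 CPM after MCAO and 30.8, 28.6, 21.0 and 22.0 CPM after sham. Replicate A lay within the sham range and the other 4 lay above it. Pecam1 rose by 2.02 ± 0.35 on the log2 scale, about 4.06-fold (adjusted p = 8.4e-05, edgeR). At 24 h all 4 MCAO libraries, with 32.3, 35.1, 49.99 and 75.8 CPM, lay above the sham range of 20.4 to 30.9 CPM, and the difference of 0.91 ± 0.37 had an adjusted p of 0.445 (edgeR). On day 7 the MCAO range of 22.5 to 56.5 CPM held the whole sham range of 24.0 to 38.8 CPM, with a difference of 0.23 ± 0.36 (adjusted p = 0.743, edgeR).

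The 12 endothelial markers, none of which is a member, changed less on day 3. Their summed level ranged from 451 to 812 CPM after MCAO (median 644) and from 464 to 513 CPM after sham (median 485). Of the 12, 2 were called higher and 0 lower, with a median log2 fold change of 0.47. Pecam1 amounted to 13.8% of that sum in the median MCAO library of day 3 (range 6.15% to 25.7%) and to 5.20% in sham (range 4.29% to 6.39%). Only replicate A, with 6.15%, lay within the sham range. Some genes of endothelial contacts outside these 12 also rose over sham on day 3, Cdh5 by 1.99 and F11r by 2.26 on the log2 scale. They stand in a list of 16 genes with 5 called higher and 0 lower on that day and a median of 0.08. Platelets also carry Pecam1 and Selp RNA. The summed level of 8 platelet markers was 17.1 to 43.9 CPM after MCAO and 21.2 to 31.9 CPM after sham on day 3, and 0 of the 5 tested were called. The part of either cell type in the Pecam1 difference was not tested.

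**Figure D2:**
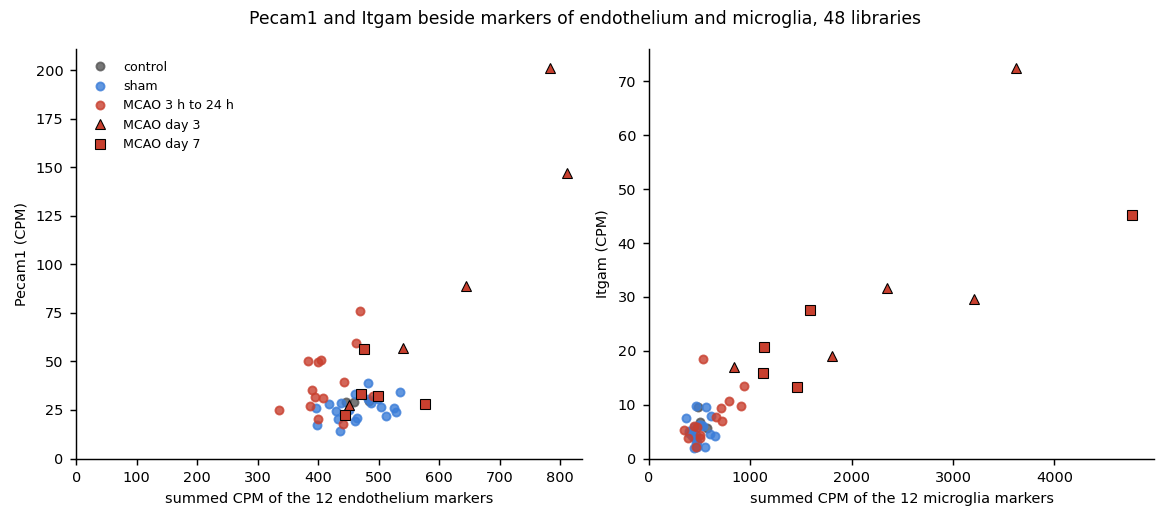
Pecam1 against the summed level of 12 endothelial markers (left) and Itgam against that of 12 microglial markers (right), each point 1 of the 48 libraries, all in CPM. In 4 of the day 3 MCAO libraries there are Pecam1 levels of 57.1 to 201 CPM over endothelial sums of 540 to 812 CPM; Itgam and the microglial sum are both high in the day 3 and day 7 MCAO libraries.

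Selp (chromosome 1, 164115264 to 164150026, plus strand) encodes P-selectin, which endothelium and platelets store in granules and bring to the surface within minutes of activation. It was nearly absent from sham tissue, with 4 reads in 20 sham libraries. On day 3 the MCAO libraries had 1, 9, 88, 13 and 44 reads, or 0.534, 4.07, 43.9, 6.35 and 19.4 CPM, and all 4 sham libraries had 0. The 5 MCAO libraries lay above sham and differed widely among themselves. Selp was called higher (adjusted p = 0.000315, edgeR) and was 45.7-fold higher against a floor of 3 counts over the sham group. At 12 h the MCAO libraries had 2, 3, 15, 6 and 27 reads and the sham libraries 0. This was 15.8-fold higher against the same floor, and the adjusted p of 0.0267 missed the threshold (edgeR). Without the filter on low counts it was called. At 24 h the MCAO libraries had 19, 2, 7 and 2 reads and the sham libraries 1 in all, a ratio of 24.1 with an exact 95% counting interval of 4.002 to 982 (adjusted p = 0.361, edgeR). At 3 h the ratio was 13.3 (2.08 to 554) from 17 reads against 1 (adjusted p = 0.591, edgeR). By day 7 Selp was down to 3 reads in 5 MCAO libraries and 2 in 4 sham libraries, a ratio of 1.31 (0.1502 to 15.7). These intervals cover counting error only. The floors stand for counting error of the sham reads and take the MCAO reads as observed. The genes Gm16587 and Gm16548 overlap Selp on the opposite strand and were counted as genes of their own. With the strand setting unknown, it is not known whether reads in a shared stretch were counted or left out as ambiguous. Fitted fold changes of Selp and Sele depend on the prior count and are not given singly. They enter the medians of the members by rank.

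Sele (chromosome 1, 164048234 to 164057677, plus strand) encodes E-selectin, which is made only by activated endothelium. It had 0 reads in all 20 sham libraries. The MCAO libraries held 10 reads at 3 h, 12 at 12 h, 7 at 24 h, 15 on day 3 and 2 on day 7. Of the 15 reads on day 3, 11 came from replicate C, with 5.49 CPM, while A and E had 0. Against the floor of 3 counts over the sham group Sele was 2.60-fold higher at 3 h, 3.57-fold at 12 h, 1.87-fold at 24 h and 4.42-fold on day 3. Counting error of these few MCAO reads is not included. On day 7 both groups were under the floor. No difference passed the test, the smallest adjusted p being 0.0754 on day 3 (edgeR).

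Itgam (chromosome 7, 128062640 to 128118491, plus strand) encodes the alpha subunit CD11b of the integrin Mac-1 of microglia, monocytes and neutrophils. It was the only member called on both day 3 and day 7. On day 3 its levels were 17.1, 19.0, 72.4, 31.7 and 29.5 CPM after MCAO and 2.90, 9.69, 1.87 and 7.50 CPM after sham. On day 7 they were 20.8, 13.2, 45.2, 15.8 and 27.6 CPM after MCAO and 6.29, 7.93, 2.18 and 4.11 CPM after sham. On both days every MCAO library lay above every sham library, and replicate C was the highest. Itgam rose by 2.63 ± 0.44 on day 3 (adjusted p = 3.4e-05) and by 2.23 ± 0.45 on day 7 (adjusted p = 0.000918, edgeR). At 24 h the MCAO libraries had 9.77, 7.01, 10.6 and 13.4 CPM and sham 9.502, 3.16, 4.27 and 2.097 CPM. They overlapped through sham replicate A, and the difference of 1.09 ± 0.50 did not pass (adjusted p = 0.511, edgeR). A gene on the same strand, Gm49368, overlaps Itgam, and reads that fall on both would be ambiguous, a class left out of the counts.

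The 12 microglial markers were high in the same MCAO groups. Their summed level was 840 to 3625 CPM after MCAO and 362 to 465 CPM after sham on day 3, and 1129 to 4766 CPM and 518 to 650 CPM on day 7. Of the 12, 10 were called higher on day 3 and 6 on day 7. Itgam amounted to a median of 1.35% of this sum in both groups on day 3, and to 1.40% after MCAO and 0.923% after sham on day 7. The part of microglial RNA in the Itgam difference was not tested.

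Itgb2 (chromosome 10, 77530252 to 77565708, plus strand) encodes CD18, the beta subunit that pairs with the products of Itgam and Itgal. On day 3 its levels were 4.80, 12.2, 52.9, 13.2 and 26.4 CPM after MCAO and 1.09, 3.69, 0 and 2.81 CPM after sham. The groups did not overlap, and Itgb2 rose by 3.51 ± 0.82 (adjusted p = 0.00306, edgeR). Without MCAO replicate C, or without sham replicate A, C or D, it was no longer called. On day 7 the levels were 10.96, 5.09, 49.4, 4.80 and 11.9 CPM after MCAO and 3.43, 2.33, 0.545 and 0.456 CPM after sham. The groups again did not overlap, but the difference of 3.25 ± 0.86 had an adjusted p of 0.0111 (edgeR). DESeq2 called it, and without MCAO replicate C the difference was 2.24 with an adjusted p of 0.120 (edgeR). At 24 h the MCAO range of 4.67 to 15.3 CPM lay above the sham range of 0 to 3.16 CPM, with a difference of 2.23 ± 0.92 (adjusted p = 0.451, edgeR).

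Itgal (chromosome 7, 127296260 to 127335138, plus strand) encodes the alpha subunit CD11a of LFA-1, the integrin of lymphocytes and other leukocytes. On day 3 the MCAO libraries had 3, 5, 27, 8 and 13 reads, or 1.602, 2.26, 13.5, 3.91 and 5.73 CPM, and the sham libraries 1, 0, 2 and 1 reads. The groups did not overlap, and Itgal rose by 3.45 ± 0.88 (adjusted p = 0.00789, edgeR). This call was lost under 9 of 15 alternatives, with adjusted p up to 0.0661 (edgeR), among them the fits without MCAO replicate C or E and without each of the 4 sham replicates. At 3 h the ratio was 4.68 (exact 95% counting interval 1.04 to 43.1) from 12 reads against 2, and at 24 h 4.81 (1.07 to 44.3) from the same numbers of reads. On day 7 it was 3.50 (0.943 to 19.3) from 12 reads against 3. Neither the earlier times nor day 7 passed the test (adjusted p from 0.329 to 0.627, edgeR).

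Itga4 (chromosome 2, 79255426 to 79333123, plus strand) encodes the alpha-4 subunit of VLA-4, which binds VCAM-1. Its differences had both signs and none passed the test. On day 3 its levels were 21.9, 9.04, 15.0, 5.37 and 12.3 CPM after MCAO and 8.34, 10.6, 44.8 and 19.7 CPM after sham, a difference of -0.71 ± 0.50 (adjusted p = 0.429, edgeR). On day 7 they were 11.5, 17.3, 29.2, 27.3 and 15.7 CPM after MCAO and 8.01, 16.8, 9.27 and 5.47 CPM after sham, a difference of 1.02 ± 0.53 (adjusted p = 0.229, edgeR). The groups overlapped on both days. Itga4 overlaps Cerkl on the opposite strand.

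**Figure D3:**
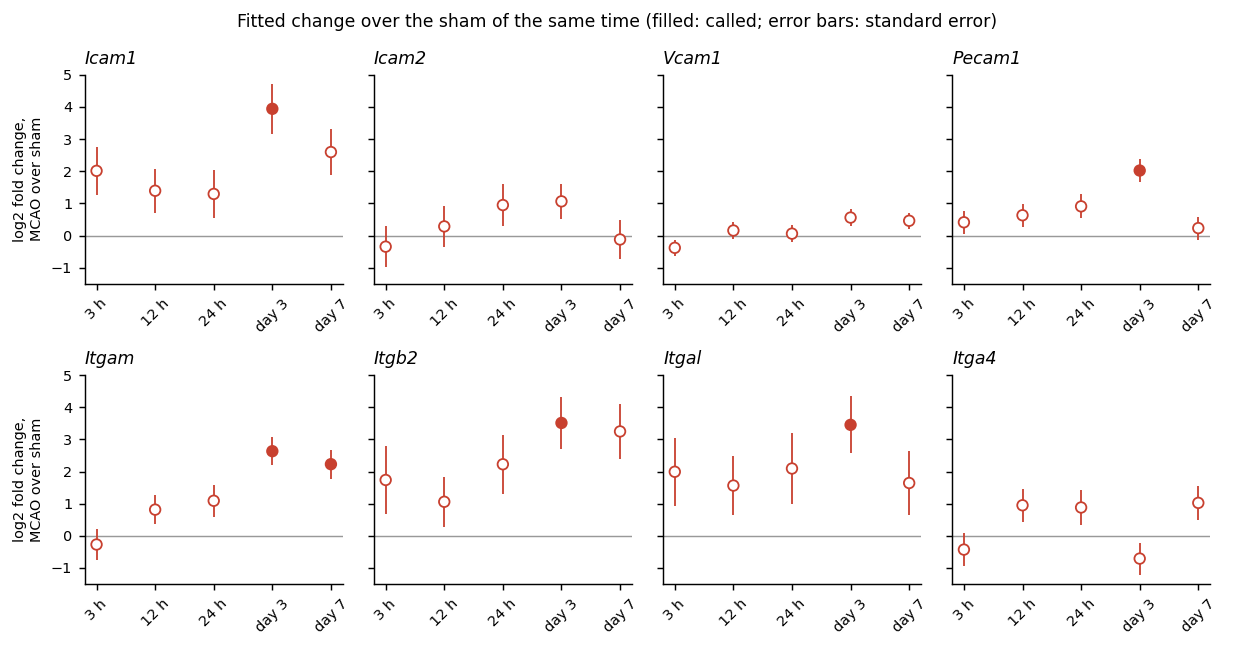
Fitted log2 fold change of MCAO over the sham of the same time for 8 members, with its standard error (bars); filled points passed the threshold. Selp and Sele are left out because their sham counts were at or near 0. Filled points stand on day 3 for Icam1, Pecam1, Itgam, Itgb2 and Itgal, and on day 7 for Itgam alone.

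Markers of blood leukocytes were uneven across the MCAO libraries. The summed level of 12 neutrophil markers was 13.7 to 1763 CPM at 12 h, the highest in replicate E, and 9.61 to 729 CPM on day 3, the highest in replicate C. In sham libraries of these times it was 2.34 to 7.98 CPM. Replicate E at 12 h also held the highest Selp, Itgam, Itgb2 and Itgal levels of its group, with 16.1, 18.5, 21.4 and 5.96 CPM. Replicate C on day 3 was the highest in its group for 7 of 10 members and replicate A the lowest for 8. The microglial, neutrophil and monocyte and macrophage sums of day 3 were lowest in replicate A too, with 840, 9.61 and 25.1 CPM, and highest in C, with 3625, 729 and 393 CPM. Without replicate C, 4 members were called on day 3, and without replicate A, 6. All genes called over sham on that day were 441 without C and 1353 without A, against 802 with all libraries. On day 3 edgeR called 3 of 11 tested neutrophil markers higher, 5 of 12 of monocytes and macrophages, 0 of 5 tested of T and B lymphocytes, 3 of 8 of fibroblasts and 3 of 5 of erythrocytes. It called 0 of 8 of pericytes, 2 of 8 of astrocytes and 0 of 8 of oligodendrocytes higher, and 1 of 10 of neurons lower. The part of these cell types in the members' differences was not tested.

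Against the intact control, fewer members were called on day 3 than against sham, and as many on day 7. On day 3, 3 of 10 were called, all higher after MCAO (Itgam by 2.32 ± 0.43, Itgb2 by 4.21 ± 0.92 and Pecam1 by 1.79 ± 0.35 on the log2 scale). Of all genes, 3.1% were called in either direction and 2.81% higher. Their adjusted p were 0.000308, 0.00180 and 0.000575 (edgeR). On day 7, 1 was higher (Itgam by 1.84 ± 0.44, adjusted p = 0.00797, edgeR), with 1.5% of all genes called in either direction and 1.09% higher. At 24 h edgeR called 0 members with 0.28% of all genes, 2 had an unadjusted p under 0.05, and DESeq2 called 0. Without control replicates C and D, which left 2 control libraries, 0 members were called on day 3 and 0 on day 7, while the log2 differences of Itgam, Itgb2 and Pecam1 on day 3 were 2.21, 4.22 and 1.76. All genes called fell from 619 to 93 on day 3 in that fit. With single libraries left out, the Itgb2 call was lost without MCAO replicate C or control replicate A or D, and the Itgam call of day 7 without MCAO replicate C or E or any control replicate.

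With replicates C and D included, Icam1 did not pass the test against control on day 3, with a difference of 0.59 ± 0.58 (adjusted p = 0.628, edgeR). Its levels were 1.67, 2.25, 16.9 and 16.6 CPM in control replicates A to D. Vcam1 had 36.3, 25.3, 70.6 and 94.2 CPM, Selp 0, 0, 3.95 and 6.28 CPM, and Sele 0, 0, 5.64 and 3.43 CPM. For these 4 genes replicates C and D lay above the highest of 20 sham libraries, which had 5.06 CPM of Icam1, 39.2 of Vcam1, 0.912 of Selp and 0 of Sele. For Pecam1 the 4 controls were alike at 29.2 to 32.4 CPM, and for Itgam at 5.02 to 9.56 CPM. The summed endothelial markers of C and D (460 and 485 CPM) lay between those of A and B (498 and 446 CPM), and so did the neutrophil markers (11.9 and 10.3 CPM against 6.70 and 19.1 CPM). The microglial sums were higher in C and D (500.1 and 574 CPM) than in A and B (429 and 487 CPM), and so were those of monocytes and macrophages (23.1 and 28.5 CPM against 22.9 and 12.9 CPM). The part of these cell types in the control levels was not tested. The erythrocyte markers summed to 117 and 57.7 CPM in C and D and to 38.5 and 68.6 in A and B. Depth was alike, at 1756467 to 1827617 counts.

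**Figure D4:**
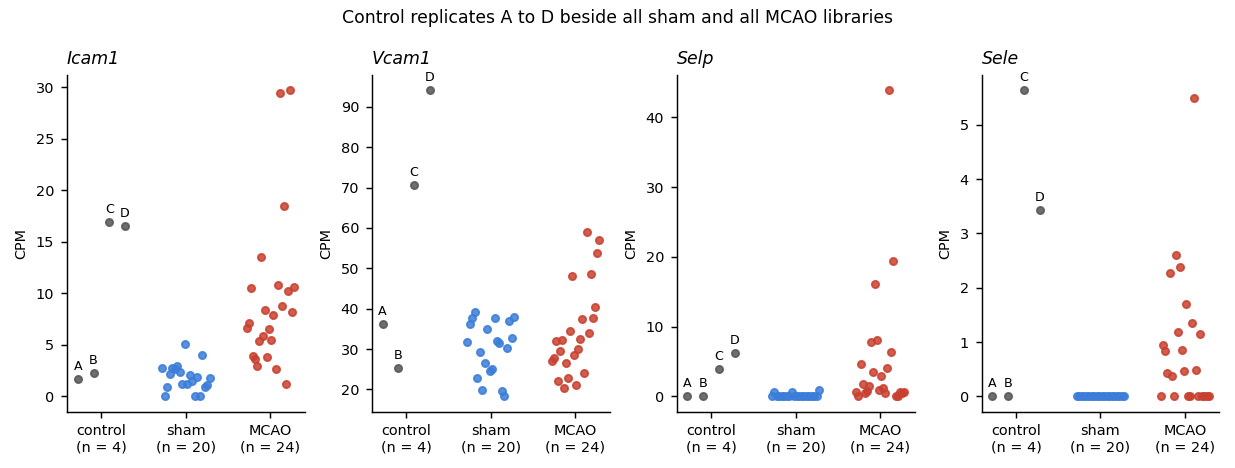
Icam1, Vcam1, Selp and Sele (CPM) in the 4 control libraries (letters), the 20 sham libraries and the 24 MCAO libraries of all times. Control replicates C and D lie above every sham library in all 4 panels, and replicates A and B do not.

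Comparing sham with control, edgeR called 0 of the 10 members at any of the 5 times, with 0.0% of all genes called in either direction at 3 h, 0.0351% at 12 h, 0.01% at 24 h and 0.0% on day 3 and day 7. At each time 4 members had an unadjusted p under 0.05, and DESeq2 called 0. These were Icam1, Vcam1, Selp and Sele, the genes that were high in control replicates C and D. At 12 h Vcam1 had 22.9, 29.2, 19.96 and 26.5 CPM in sham, a difference from control of -1.20 ± 0.27 (adjusted p = 0.0855, edgeR). It was called without control replicate B.

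Between successive times after MCAO, edgeR called 0 members. From 24 h to day 3, 0.486% of all genes were called in either direction and 5 members had an unadjusted p under 0.05. Itgam differed by 1.74 ± 0.41 (adjusted p = 0.0137) and Pecam1 by 1.12 ± 0.34 (adjusted p = 0.0707, edgeR). DESeq2 called 1, Itgam. From day 3 to day 7, 0.0351% of all genes were called and 4 members had an unadjusted p under 0.05. Pecam1 differed by -1.60 ± 0.32 (adjusted p = 0.0129) and Selp went from 155 reads to 3 (adjusted p = 0.0142, edgeR). DESeq2 called 1, Pecam1. Itgam and Itgb2 differed little over these days, by -0.48 ± 0.36 and -0.43 ± 0.61 (adjusted p = 0.639 and 0.840, edgeR). From 3 h to 12 h, 0.376% of all genes were called, 2 members had an unadjusted p under 0.05 and DESeq2 called 0. From 12 h to 24 h these were 0.015%, 0 and 0.

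The change of the MCAO effect itself, each over its own sham, was called for 0 members between any neighbouring times by edgeR or DESeq2, with 0.01% of all genes called at most (0.0% from day 3 to day 7). From 24 h to day 3, 4 members had an unadjusted p under 0.05, and from day 3 to day 7, 3. The fall of the Pecam1 effect from day 3 to day 7 was -1.79 ± 0.49 (adjusted p = 0.0785, edgeR). Between 3 h and day 3, the Itgam effect differed by 2.90 (adjusted p = 0.0125, edgeR).

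Other genes of the same pathway were described from 4 lists. Of 18 tested other integrins, 3 were called higher than sham on day 3 and 1 on day 7, and none lower. Itgb5, a partner of the alpha-v subunit, had a median of 59.6 CPM after MCAO and 16.0 CPM after sham on day 3, and 48.9 and 22.1 CPM on day 7. It rose by 1.92 ± 0.40 and 1.89 ± 0.39 on the log2 scale (adjusted p = 0.000862 and 0.00139, edgeR). Itga6 and Itgb1, which form a laminin receptor, rose on day 3 by 1.72 ± 0.26 and 1.33 ± 0.26 (adjusted p = 8.5e-06 and 0.000388, edgeR).

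Of 12 tested other selectins and selectin ligands, 1 was called higher at 12 h, 1 on day 3 and 2 on day 7. Cd44, a hyaluronan receptor that also binds E-selectin, rose at 12 h by 3.15 ± 0.57, on day 3 by 3.64 ± 0.56 and on day 7 by 3.45 ± 0.63 (adjusted p = 0.00119, 1.1e-05 and 0.000308, edgeR). At 12 h it ranged from 11.5 to 85.8 CPM after MCAO and from 1.68 to 7.02 CPM after sham. Selplg, the leukocyte ligand of P-selectin, rose on day 7 by 1.46 ± 0.32 (adjusted p = 0.00221, edgeR), with 32.6 to 107 CPM after MCAO and 17.3 to 21.8 CPM after sham.

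Of 16 other immunoglobulin-type and junctional molecules, 5 were called higher on day 3 (Cdh5, Esam, F11r, Mcam and Ninj1) and 1 on day 7. Ninj1, an adhesion molecule of myeloid cells and injured nerve, rose on day 3 by 1.34 ± 0.30 and on day 7 by 1.41 ± 0.31 (adjusted p = 0.00174 and 0.00210, edgeR). Mcam, F11r and Cdh5, molecules of endothelial contacts, rose on day 3 by 2.61 ± 0.58, 2.26 ± 0.37 and 1.99 ± 0.44 (adjusted p = 0.00198, 3.2e-05 and 0.00188, edgeR). F11r ranged from 16.0 to 50.4 CPM after MCAO and from 3.28 to 7.62 CPM after sham on that day.

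Of 17 genes for integrin activation and chemokine presentation, 7 were called higher on day 3 and 4 on day 7. Fyb, an adaptor of integrin activation in leukocytes, rose by 3.01 ± 0.39 and 1.93 ± 0.39 (adjusted p = 7.3e-07 and 0.000876, edgeR). Fermt3, the kindlin of blood cells, rose by 2.65 ± 0.55 and 2.84 ± 0.64 (adjusted p = 0.000796 and 0.00296, edgeR). Apbb1ip, which links Rap1 to talin, rose by 2.16 ± 0.39 and 1.84 ± 0.40, and Skap2 by 1.34 ± 0.26 and 1.03 ± 0.26. The others called on day 3 were Lsp1, Tln1 and Vwf. On day 3 the list medians were 0.86, 1.22, 0.08 and 0.47 in the order given, against 0.01 over all genes. No gene of these lists was called lower at any time.

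The genes whose levels most resembled a member's were named by Spearman's rho over the 48 libraries on log2(CPM + 1), a description over libraries that share time and surgery. Icam1 was closest to the globins Hbb-bs (0.807) and Hbb-bt (0.789) and to Ctla2a (0.783). Erythrocyte markers after MCAO summed to 180 to 627 CPM at 3 h, 69.7 to 1416 CPM at 12 h and 63.3 to 458 CPM at 24 h. On day 3 they summed to 97.7 to 478 CPM and on day 7 to 34.6 to 725 CPM. In the shams these sums were 10.4 to 97.3, 15.6 to 138, 20.1 to 150, 12.2 to 23.6 and 9.80 to 49.2 CPM in order of time. The groups did not overlap at 3 h or on day 3. The part of blood in the Icam1 difference was not tested. The methods describe perfusion of the mice before dissection. Selp was closest to Tgm2 (0.844), Adamts1 (0.766) and Gm49339 (0.757), and Sele to S100a9 (0.668), Lcn2 (0.633) and S100a8 (0.629). Itgam was closest to Laptm5 (0.789), Lyz2 (0.778) and Ctss (0.778), genes that myeloid cells express strongly. Itgb2 was closest to Pycard (0.820), Lcp1 (0.812) and Lgals3 (0.812), and Itgal to Rap1b (0.765), Fyb (0.738) and Cks1b (0.735). Pecam1 was closest to Vwa1 (0.706), Upp1 (0.704) and Elovl1 (0.690), and Itga4 to Pcdh19 (0.781), Ptpn14 (0.739) and Arhgef28 (0.727). Icam2 was closest to Mcm7 (0.635), Gxylt1 (0.625) and Mfap3 (0.602), and Vcam1 to Cat (0.603), Rnf167 (0.570) and Padi2 (0.535).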

How the data were processed

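The authors trimmed the reads of 3′-end (QuantSeq) libraries with Trimmomatic, filtered out rRNA and mitochondrial sequences (SortMeRNA) and mapped what was left with STAR 2.5.2b to the GRCm38 genome joined to the spike-ins. Gene counts came from htseq-count (union mode, Gencode vM8). They deposited raw counts for each library, which were used here. A deposited matrix of transformed values for all libraries was not used. Symbols and coordinates came from Gencode annotation of the same build and matched 46488 of 46983 gene identifiers. Reads without a feature (median 23.5%), ambiguous reads (0.400%), reads that were not unique (33.5%) and the 92 spike-ins stayed out of library sizes and tests. No 2 libraries held identical counts. Reads come from transcript 3′ ends, so a weakly expressed gene rests on few of them.

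The quasi-likelihood test of edgeR 4.0.16 (R 4.3.3, TMM factors) was run in 1 fit of all 11 groups over the 19970 genes whose counts exceeded 10 in total, and p-values were adjusted by Benjamini-Hochberg over these genes. A call required an adjusted p below 0.01 and a change beyond 0.58 on the log2 scale, the study's thresholds. Standard errors came from the F statistic. The biological coefficient of variation was 24.9%. The edgeR steps were tested on simulated counts in which only genes with a mean above 5 counts per library were changed. Sele and Itgal lie below that mean, so the simulation does not cover them. Ratios of members with 1 to 3 counts in the reference group have exact 95% intervals, and a group at 0 was set to a floor of 3 counts. Marker lists were summed, without a test of the sum. The genes named outside the 10 were chosen by rule, up to 4 per pathway list by the number of times called and then by the size of the change, and the 3 closest to each member in level among genes with a mean of at least 5 CPM. The members and lists were chosen with earlier results of these data known.

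Alternatives were DESeq2 1.42.0 in place of edgeR, its size factors, scaling to spike-ins, filterByExpr, no filter on low counts, a fit of only the groups compared, the replicate letter as a block, an adjusted p under 0.05 with no fold limit, and each replicate left out. Leaving out control replicates C and D together and comparing MCAO effects between all times were chosen after seeing the data. Tables and plots were made with Python 3.11.15, numpy 2.4.6, scipy 1.17.1, pandas 2.3.3 and matplotlib 3.10.9.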

Additional observations from a re-analysis of the deposited data

Results flagged for a closer look

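Of 92 sets of 4 or 5 libraries (a member in a group, with more than 3 counts in some library), 6 had a library that stood apart from the others by Dixon's test, which chance does in about 1 of 20. Itgam was 72.4 CPM in MCAO replicate C on day 3, with 17.1 to 31.7 CPM in the other 4. Sele was 5.49 CPM in the same library, with at most 1.36 CPM in the others. Itgb2 was 49.4 CPM in MCAO replicate C on day 7, with 4.80 to 11.9 CPM in the others. Itgal was 5.96 CPM in MCAO replicate E at 12 h, with at most 1.48 CPM in the others, and Icam2 was 10.0001 CPM in MCAO replicate D at 12 h, with 1.94 to 4.17 CPM. Pecam1 was 32.4 CPM in control replicate A, with 29.2 to 29.7 CPM in the other 3.

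For Vcam1 all MCAO libraries lay below the sham mean at 3 h and above it on day 7. The MCAO effect on day 7 exceeded that at 3 h by 0.84 on the log2 scale, which did not pass the test (adjusted p = 0.244, edgeR).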

How the results depend on the processing

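Of the 11 calls of single members, Icam1 and Itgam over sham on day 3 and Itgam over sham on day 7 held under all 16 alternatives of each. Selp and Pecam1 on day 3 were lost only in the fit of the groups compared alone, Itgb2 under 5 alternatives and Itgal under 9. No call changed its direction. The number of members called over sham on day 3 was 6, and 2 (Icam1 and Itgam) in the fit of the groups compared alone. At 12 h it was 0, and 1 (Selp) without the filter or at an adjusted p under 0.05. On day 7 it was 1, and 3 with DESeq2, without the filter or at an adjusted p under 0.05, 2 with filterByExpr and 1 to 2 with a replicate left out. Against control on day 7 it was 1, and 2 with DESeq2, filterByExpr, no filter or an adjusted p under 0.05, 0 with spike-ins, without control replicates C and D or with the groups compared alone, and 0 to 2 with a replicate left out. Against control on day 3 it was 3, and 0 without control replicates C and D. From 24 h to day 3 after MCAO it was 0, and 1 with DESeq2, no filter or an adjusted p under 0.05, and 0 to 2 with a replicate left out. From day 3 to day 7 it was 0, and 1 with DESeq2, 2 without the filter or at an adjusted p under 0.05, and 0 to 2 with a replicate left out. For sham at 12 h against control it was 0, and 0 to 1 with a replicate left out.

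With the replicate letter as a block, 0 members were called against control on day 7 and 5 over sham on day 3. The correlations of same-letter deviations ran from -0.315 to 0.179. The labels do not say whether a letter marks a shared batch, and such correlations cannot decide it. All genes called over sham on day 3 were 802, and 644 with the block, 339 with the groups compared alone and 1643 at an adjusted p under 0.05. At 12 h they were 82, and 171 without the filter and 277 at an adjusted p under 0.05. On day 7 they were 698, and 302 with the groups compared alone, 1845 at an adjusted p under 0.05 and 1088 with DESeq2. They were 998 without the filter, 789 with filterByExpr and 241 to 676 with a replicate left out. For control and for successive times, most totals under the alternatives are not given here. Shifts in the number of members there cannot be read as results about the members. With spike-in scaling the median of all genes over sham was -0.22 in place of 0.01 on day 3 and 0.14 on day 7 and at 24 h, and 77.9% of the calls on day 3 and 82.4% on day 7 were higher, against 93.5% and 59.2% in the reported fit. Directions turned only for differences that were not called. Icam2 on day 7 was 0.0064 (against -0.12) with spike-ins and -0.71 to 0.16 with a replicate left out, and Icam2 at 12 h -0.30 to 0.88. Itga4 at 3 h was -0.79 to 0.25, Vcam1 at 24 h -0.23 to 0.22, Selp on day 7 -0.026 to 2.67 and Pecam1 on day 7 -0.016 to 0.38. The cause of these changes was not tested. Few reads limit Sele, Itgal and Selp.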
